A study of Mus musculus with 4 samples.

Results

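Ifit1, Ifit2, Ifit3, Ifit3b, Mx1, Mx2, Rsad2, Cmpk2, Bst2 and Ifitm3 are antiviral effector genes, most of which are induced by type I interferon. They were picked by name, with earlier results of these data known, as 10 of the 22180 genes measured. Each was read from the single array row whose platform annotation gives that symbol alone. All 10 had such a row. The cells were BR5FVB1-Akt, a mouse ovarian cancer line, either untreated (control, 2 arrays) or given 10 uM decitabine for 72 h (2 arrays), and each sample's total RNA went onto its own Affymetrix Mouse Gene 2.0 ST array. Decitabine is a cytidine analogue that enters replicating DNA and traps DNA methyltransferases. The labels describe 1 line and call the arrays of a group biological replicates but do not say whether these were separate cultures. Every p-value therefore rests on the spread among arrays, which the limma fit draws partly from all genes, and not on a known spread among cultures. Values are log2 expression, a scale inferred from their range.

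Type I interferon binds a receptor whose JAK kinases activate a transcription factor complex. That complex, with IRF9 as its DNA-binding part, binds interferon-stimulated response elements in promoters and raises transcription of genes such as these. The effectors act at different steps of infection: IFITM3 at virus entry, MX proteins after it, IFIT proteins on foreign RNA, viperin (from Rsad2) on nucleotide pools and genome copying, and tetherin (from Bst2) at virus release.

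The promoters are shown because 6 of the 8 members with a RefSeq promoter window (GRCm38.p6, 250 bases before to 50 after a transcript start) held the core of the response element. The core was searched as GAAANNGAAA on both strands, where the opposite strand reads TTTCNNTTTC, and overlapping matches were counted separately. It was found in 3.44% of all 32851 such windows, and 0.225% held at least 2 matches. The 250 bases before the start follow for 5 members, 5′ to 3′ on the gene's strand and with matches in capitals. For Ifitm3 only the second of its matches is shown, with 10 bases on either side.
Ifit1 (chr19:34640639-34640888, plus strand): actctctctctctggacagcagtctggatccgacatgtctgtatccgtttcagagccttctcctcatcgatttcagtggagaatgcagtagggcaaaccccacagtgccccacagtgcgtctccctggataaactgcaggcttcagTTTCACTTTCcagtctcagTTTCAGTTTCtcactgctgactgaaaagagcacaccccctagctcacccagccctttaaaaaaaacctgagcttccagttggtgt
Ifit3 (chr19:34583279-34583528, plus strand): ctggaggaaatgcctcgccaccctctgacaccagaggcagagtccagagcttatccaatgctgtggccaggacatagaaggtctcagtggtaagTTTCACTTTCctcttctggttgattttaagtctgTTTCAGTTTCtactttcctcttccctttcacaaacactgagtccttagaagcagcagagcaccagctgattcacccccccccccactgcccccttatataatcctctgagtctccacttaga
Rsad2 (chr12:26456453-26456702, minus strand): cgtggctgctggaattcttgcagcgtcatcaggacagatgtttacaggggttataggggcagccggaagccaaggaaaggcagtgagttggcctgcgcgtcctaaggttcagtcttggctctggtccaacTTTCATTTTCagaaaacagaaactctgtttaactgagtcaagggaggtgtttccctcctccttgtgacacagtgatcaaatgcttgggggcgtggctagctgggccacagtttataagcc
Cmpk2 (chr12:26468965-26469214, plus strand): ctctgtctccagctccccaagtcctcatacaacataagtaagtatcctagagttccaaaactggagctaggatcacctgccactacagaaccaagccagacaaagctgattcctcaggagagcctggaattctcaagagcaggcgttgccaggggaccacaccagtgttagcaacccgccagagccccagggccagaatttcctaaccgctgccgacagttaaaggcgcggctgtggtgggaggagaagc
Bst2 (chr8:71537473-71537722, minus strand): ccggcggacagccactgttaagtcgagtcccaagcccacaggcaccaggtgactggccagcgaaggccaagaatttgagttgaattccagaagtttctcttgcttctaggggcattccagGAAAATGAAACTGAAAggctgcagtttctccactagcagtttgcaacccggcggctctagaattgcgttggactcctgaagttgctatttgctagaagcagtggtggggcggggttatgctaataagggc
Ifitm3 (chr7:141010706-141010735, minus strand): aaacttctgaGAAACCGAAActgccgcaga

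Ifit1 had 2 matches on the opposite strand, the first base of the nearer one 85 bases before the start. Ifit3 carried the same 2 cores, TTTCACTTTC and TTTCAGTTTC, in the same order and beginning 156 and 122 bases before its start. The Ifit3b window aligned with that of Ifit3 at 94.5% identity over 274 columns and held the same pair of cores. Rsad2 had 1 match. The 2 matches of Bst2 overlapped and lay on the gene's strand, and those of Ifitm3 lay just after the start, at bases 3 to 12 and 20 to 29. No match was found in the window of Cmpk2 or in either window of Ifit2. A match describes the letters only, and the absence of one covers only this window. CpG dinucleotides, the sites that DNA methyltransferases modify, numbered 4 in the Ifit1 window, 1 in that of Ifit3, 6 in that of Rsad2, 8 in that of Cmpk2, 11 in that of Bst2 and 5 in that of Ifitm3, against a median of 7 over all windows. Mx1 and Mx2 had no window.

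**Figure D1:**
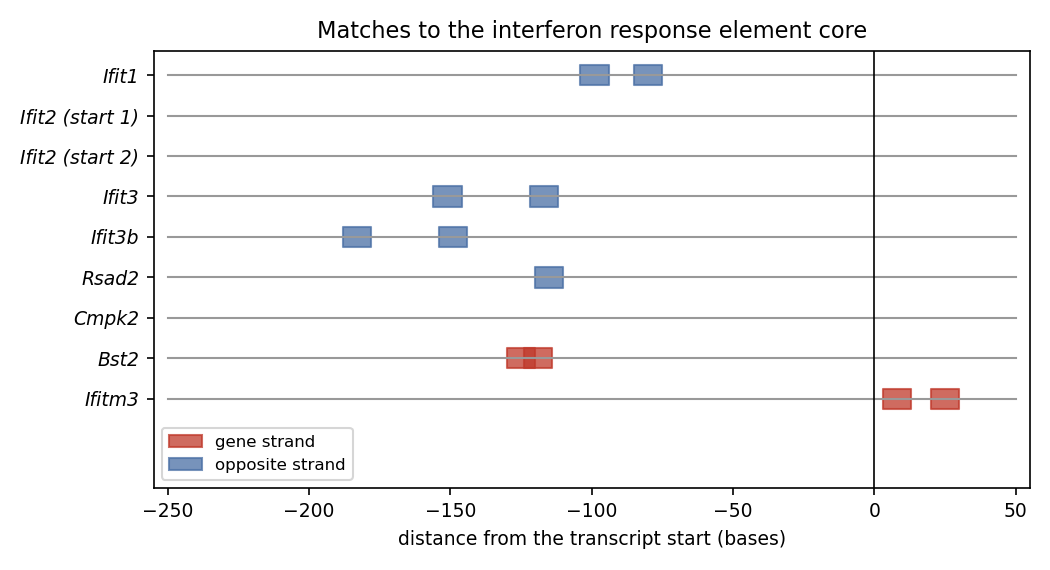
Matches to the core GAAANNGAAA in the RefSeq windows of 8 members, by distance in bases from the transcript start (x axis) and by strand (colour), with 1 line per window. Ifit1, Ifit3, Ifit3b, Bst2 and Ifitm3 show 2 matches each, Rsad2 shows 1, and Cmpk2 and both starts of Ifit2 show none.

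With decitabine 1 of the 10 members, Ifit1, was higher in limma at an adjusted p under 0.05 and 0 were lower. Over all genes tested, 0.131% were called higher and 0.0135% lower. Before adjustment p was under 0.05 for 7 members, all of them higher, and for 7.34% of all genes in the higher and 6.97% in the lower direction. In the same 7 the decitabine arrays both lay above the 2 control arrays, which held for 23.4% of all genes, and in 1 member, Mx1, both lay below, which held for 22.5%. The median log2 fold change of the 10 was 0.69, against 0.00 over all genes tested. When the variance was allowed to follow intensity (the intensity trend), 6 members were called higher and 0 lower, against 3.68% and 3.60% of all genes. Those 6 were Ifit1, Cmpk2, Mx2, Bst2, Rsad2 and Ifitm3. RNA from a whole culture cannot tell a rise in every cell from a rise in a fraction of the cells.

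**Figure D2:**
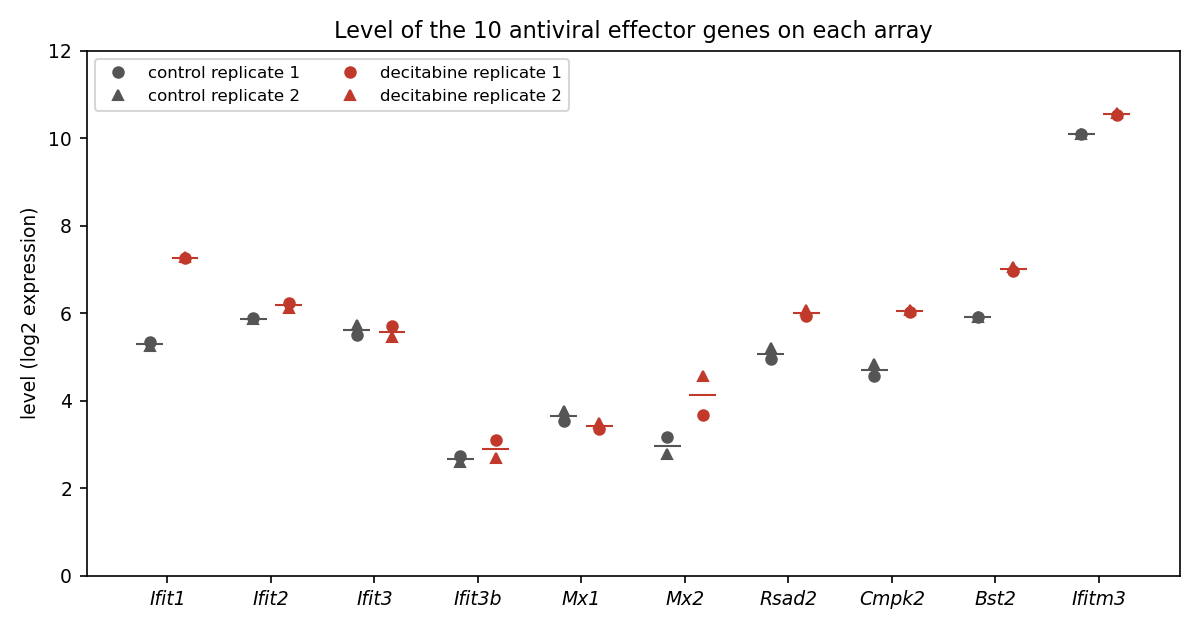
Level of each member (log2 expression, y axis) on the control arrays (grey) and the decitabine arrays (red), with a point per array and a line at each mean of 2 arrays. The decitabine points of Ifit1, at 7.26 and 7.28, stand clear of its control points at 5.34 and 5.25, while those of Ifit3 interleave.

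The IFIT genes encode tetratricopeptide-repeat proteins that bind viral RNA or one another. Ifit1, whose product recognises RNA caps that lack 2′-O methylation, stood at 5.34 and 5.25 in the controls and at 7.26 and 7.28 with decitabine (log2 expression). The groups were separated by 1.92, with SDs of 0.07 and 0.02 within them. The log2 fold change was 1.98 ± 0.10 (SE, 2 arrays per group; 95% confidence interval 1.72 to 2.23), a 3.94-fold difference with an adjusted p of 0.0261, and its size ranked 10 among all genes tested. The call was lost with the replicate number as a block (adjusted p = 0.106) and with all rows fitted (adjusted p = 0.282). It was also lost without any single array, which left 1 array in a group. At each of these settings every other gene's call was lost too. Without any single array the log2 fold change of Ifit1 stayed between 1.93 and 2.03.

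The other IFIT members had smaller estimates, and none passed. Ifit2, whose product binds AU-rich RNA and partners other IFIT proteins, was at 5.89 and 5.86 on the control arrays and at 6.24 and 6.12 on the decitabine arrays. Its groups did not overlap, with a gap of 0.23, and its log2 fold change was 0.31 ± 0.10 (95% confidence interval 0.05 to 0.57), which did not pass (adjusted p = 0.294). Ifit3, whose product stabilises IFIT1 complexes in human cells, read 5.51 and 5.74 on the control arrays, against 5.70 and 5.45 on the decitabine arrays. Those groups overlapped, and the log2 fold change of -0.04 ± 0.14 had a 95% interval of -0.41 to 0.32, whose upper end is a 1.25-fold rise. Ifit3b, a close copy of Ifit3, was at 2.74 and 2.59 with the controls and at 3.10 and 2.68 with decitabine, so that its groups overlapped too. Its log2 fold change was 0.23 ± 0.17 (adjusted p = 0.606). Ifit3 and Ifit3b are near-identical genes, and how far either row reads the other gene's RNA was not tested. The intervals of Ifit1 and of the 3 other IFIT members did not overlap. Differences between genes were not tested.

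**Figure D3:**
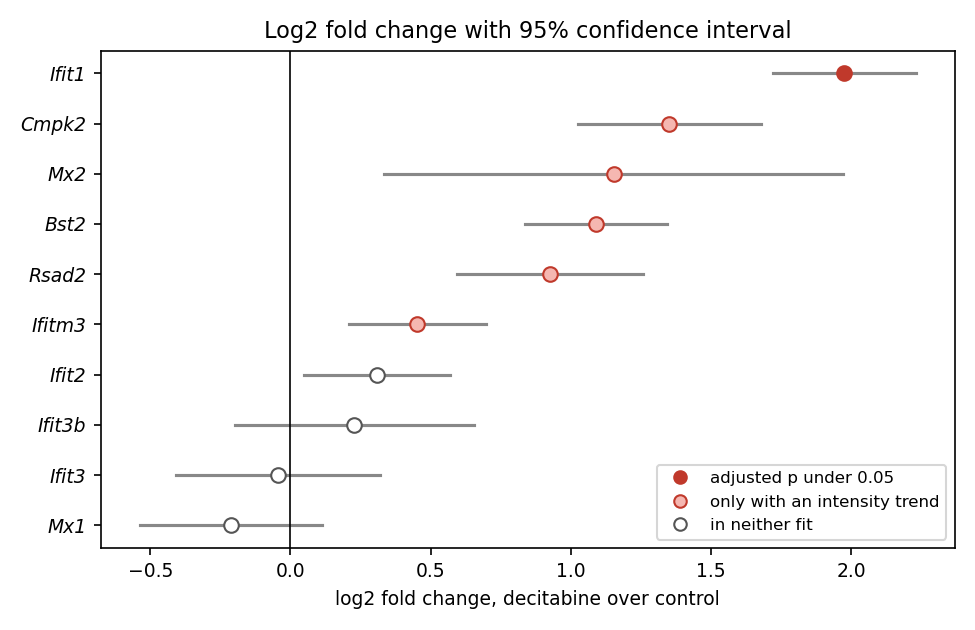
Log2 fold change of each member, decitabine over control (x axis), with its 95% confidence interval from limma without a trend (grey bars). Filled red marks the gene called in that fit (Ifit1), pale red the 5 called only with an intensity trend, and white the 4 called in neither, whose estimates run from -0.21 for Mx1 to 0.31 for Ifit2.

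The MX genes encode dynamin-like GTPases that trap incoming viral components. The reference gene table, which is of the C57BL/6J strain, lists both Mx1 and Mx2 as transcribed pseudogenes, and many laboratory strains carry defective Mx alleles. Which alleles this line carries is not given in the sources used here. Mx2 read 3.17 and 2.77 on the control arrays, against 3.68 and 4.57 on the decitabine arrays. Both decitabine arrays were higher, but they differed from each other by more than the gap of 0.51 between the groups. The log2 fold change was 1.15 ± 0.32, the largest standard error of the 10 members, with a 95% confidence interval of 0.33 to 1.97 and an adjusted p of 0.237. It passed with the intensity trend (adjusted p = 0.0328) and was 0.71 without decitabine replicate 2 and 1.60 without decitabine replicate 1. Mx1 was at 3.53 and 3.76 on the control arrays and at 3.36 and 3.50 on the decitabine arrays. Its groups were separated by only 0.03, in the downward direction, and the log2 fold change of -0.21 ± 0.13 did not pass (adjusted p = 0.517). The Mx1, Mx2 and Ifit3b rows had mean values below the 25th percentile of all genes, and no detection level could be set for them.

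Rsad2 and Cmpk2 are neighbouring genes on chromosome 12 with opposite strands. Rsad2 encodes viperin, a radical SAM enzyme that makes a chain-terminating CTP analogue, and Cmpk2 encodes a mitochondrial kinase of UMP, CMP and dCMP. Cmpk2 was at 4.56 and 4.83 on the control arrays and at 6.02 and 6.08 on the decitabine arrays. That was a gap of 1.19 between the groups, the widest after Ifit1 among the members. The log2 fold change of 1.35 ± 0.13 (95% confidence interval 1.03 to 1.68), a 2.55-fold difference, had an adjusted p of 0.0579 above the threshold of 0.05. It passed with the intensity trend (adjusted p = 4.05e-04) and with arrays centred on their medians (adjusted p = 0.0403). Rsad2 read 4.95 and 5.20 on the control arrays, against 5.93 and 6.07 on the decitabine arrays, again without overlap. Its log2 fold change was 0.93 ± 0.13 (95% confidence interval 0.59 to 1.26; adjusted p = 0.102), and it passed with the intensity trend (adjusted p = 0.00349). For both genes control replicate 2 was the higher control and decitabine replicate 2 the higher treated array.

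Bst2 encodes tetherin, a membrane protein that holds budding enveloped virus at the cell surface. Its row read 5.91 and 5.92 on the control arrays, against 6.96 and 7.05 on the decitabine arrays. Replicates lay close together and the groups were 1.04 apart. The log2 fold change was 1.09 ± 0.10 (95% confidence interval 0.84 to 1.35), a 2.13-fold difference. The adjusted p of 0.0558 was above the threshold, and Bst2 passed with the intensity trend (adjusted p = 2.00e-04) and with arrays centred on their medians (adjusted p = 0.0409).

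Ifitm3 encodes a small membrane protein that blocks fusion of virus with endosomes. It was at 10.11 and 10.09 on the control arrays and at 10.53 and 10.57 on the decitabine arrays. The groups were separated by 0.42, with SDs of 0.02 in both. Its log2 fold change of 0.45 ± 0.10 (95% confidence interval 0.21 to 0.70), a 1.37-fold difference, did not pass (adjusted p = 0.173) but did with the intensity trend (adjusted p = 5.80e-04). Ifitm2, a related gene of the same cluster, went the other way, from 7.81 and 7.63 on the control arrays to 7.22 and 6.95 on the decitabine arrays. It was at -0.64 ± 0.14 (adjusted p = 0.183, and 0.00617 with the intensity trend). Ifitm2 and Ifitm3 are similar in sequence, so a part of each row's signal could come from the other gene, which was not tested.

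**Figure D4:**
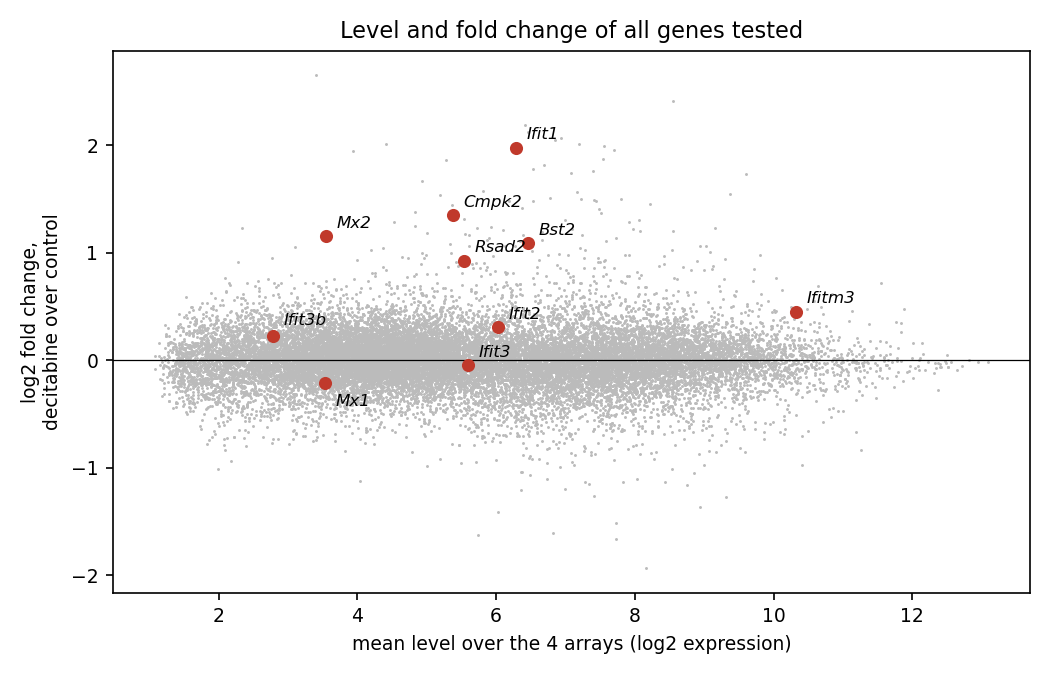
Mean level over the 4 arrays (log2 expression, x axis) against log2 fold change, decitabine over control (y axis), for all 22180 genes tested (grey) and the 10 members (red, named). Ifit1 at 1.98, Cmpk2 at 1.35, Mx2 at 1.15, Bst2 at 1.09 and Rsad2 at 0.93 lie above most grey points, with ranks of 10, 38, 60, 67 and 106 among all genes, and Ifit3 is at -0.04.

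In order of log2 fold change the members ran Ifit1, Cmpk2, Mx2, Bst2, Rsad2, Ifitm3, Ifit2, Ifit3b, Ifit3 and Mx1. Only the interval of Ifit1 lay clear of those of all members but Mx2, and the intervals of Cmpk2, Mx2, Bst2 and Rsad2 overlapped one another. Cmpk2 ranked 38, Mx2 60, Bst2 67, Rsad2 106, Ifitm3 734 and Ifit2 1866 among all genes tested. The genes whose pattern over the 4 arrays was most like that of Ifit1, by Euclidean distance between values centred on each gene's own mean, were the chemokine Cxcl3 (distance 0.06 on the log2 scale), the chemokine Ccl5 (0.12), the hexosamine synthesis enzyme gene Gfpt2 (0.12), the prostaglandin synthase gene Ptgs2 (0.17) and the kinase gene Plk2 (0.18). Their log2 fold changes ran from 1.87 for Gfpt2 to 2.07 for Ccl5. With 2 arrays per group this distance is small only where fold change and replicate spread are close to those of Ifit1. The likeness of these genes therefore follows from those values alone. None of these 5 was in the interferon lists, but those lists were drawn up without chemokine, hexosamine or prostaglandin genes. Their absence therefore says nothing about a response to interferon, which was not tested.

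The genes beside the members in the RefSeq gene order were read from the same fit, and none was called. Inside the Ifit cluster on chromosome 19 lay Ifit1bl1, at 0.23 ± 0.25, and Ifit1bl2, at 0.21 ± 0.11 (log2 fold change). The nearest genes tested on its flanks were Lipa, at -0.23 ± 0.11, and Slc16a12, at 0.30 ± 0.20. Rnf144a, next to Rsad2, was at -0.05 ± 0.16, and Gm20187, next to Cmpk2, at 0.16 ± 0.12. Bst2 on chromosome 8 lay between Plvap, at -0.28 ± 0.16, and Mvb12a, at -0.08 ± 0.11. Around and between the MX genes on chromosome 16, Bace2 was at 0.08 ± 0.10, Fam3b at 0.02 ± 0.12 and Tmprss2 at 0.22 ± 0.12. Beside Ifitm3 on chromosome 7, Ifitm1 was at -0.28 ± 0.16 and Ifitm6 at 0.12 ± 0.13. None of these 13 neighbours passed in limma with or without the intensity trend (smallest adjusted p = 0.408 without it and 0.0902 with it).

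The rest of the pathway was followed in lists that exclude the members. Of 102 further interferon pathway genes tested, 3 were called higher and 0 lower, against 0.131% and 0.0135% of all genes. With the intensity trend 39 were higher and 2 lower, against 3.68% and 3.60% of all genes. An unadjusted p under 0.05 was found for 7.34% of all genes upward and 6.97% downward. At the start of the pathway, none of 20 interferon ligand genes passed in either fit, and their median log2 fold change was -0.06. These rows read low, with a median level percentile of 26.5 and 13 of the 20 below the median level of all genes. No detection level was set, so a change in ligand RNA could be missed. The beta interferon gene Ifnb1, named after its values were seen, read 3.66 and 2.73 on the control arrays, against 3.41 and 3.18 on the decitabine arrays, which overlapped. The smallest p-values among the ligands belonged to Ifnab, at -0.65 ± 0.10, and Ifna11, at -0.30 ± 0.14, both downward. Their level percentiles were low, at 14.2 and 3.5. The 15 genes of receptors, JAK-STAT and IRF factors had a median log2 fold change of 0.10. Both decitabine arrays lay above both control arrays in 8 of them (23.4% of all genes) and below in 6 (22.5% of all genes). Of the 15, 0 passed without the trend (4 had an unadjusted p under 0.05, all higher) and 4 were higher with it. They were led by Irf7, which amplifies interferon induction (1.74 ± 0.16), and by Irf9, the DNA-binding part of the response element complex (0.93 ± 0.11). Among 8 feedback inhibitors, whose median log2 fold change was 0.09, only Usp18, which restrains the receptor, was called higher (2.19 ± 0.19). Ptpn6 was at 0.22 ± 0.09.

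Of 37 other antiviral effectors, 2 were called higher, Gbp3 and Rtp4, against 0.131% of all genes. With the intensity trend 28 were higher and 0 lower, against 3.68% and 3.60% of all genes. The median of the 37 was 0.73, beside the 0.69 of the 10 members. For 15 genes of RNA and DNA sensing the median was 0.30, with Zbp1 at 1.00 ± 0.11 and Ddx58 at 1.17 ± 0.14. None was called without the trend, and 6 were called higher and 1 lower with it. At an unadjusted p under 0.05, 7 were upward and 1 downward, against 7.34% and 6.97% of all genes. The 7 other IFIT and IFITM genes had a median of 0.00, and the 1 called with the trend was Ifitm2, downward.

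**Figure D5:**
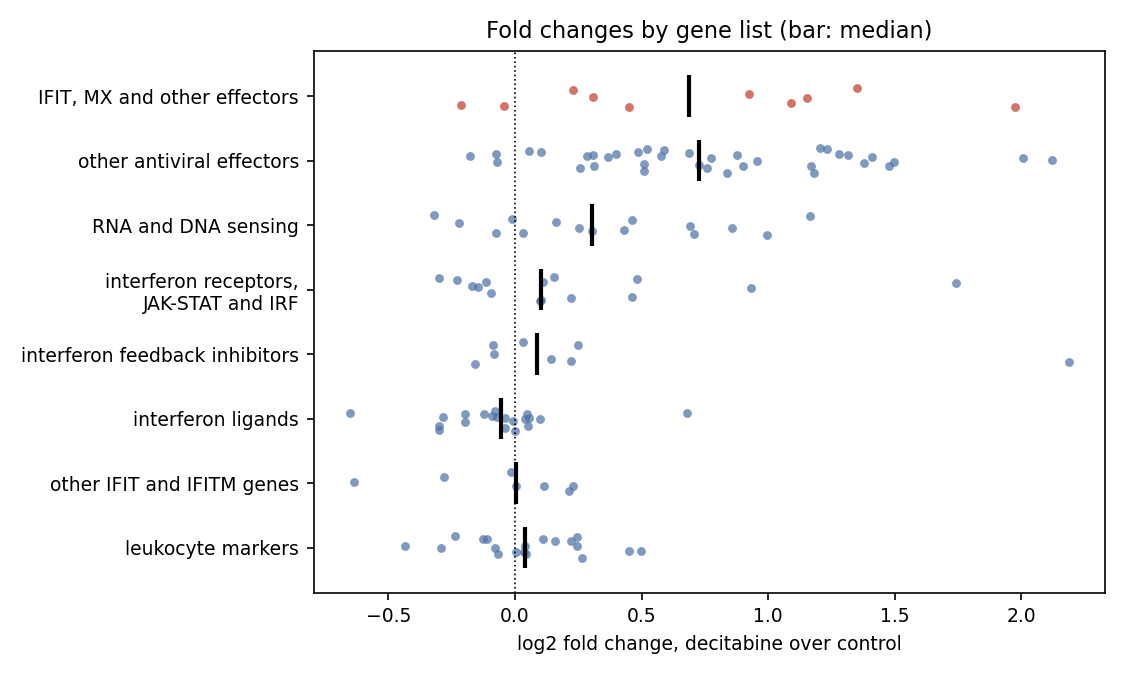
Log2 fold changes, decitabine over control (x axis), of the 10 members (red) and of the genes in 6 interferon pathway lists and a leukocyte marker list (blue), with a point per gene and a bar at each list's median. The members' median is 0.69 and that of other antiviral effectors 0.73, while interferon ligands centre on -0.06 and leukocyte markers on 0.04.

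Across arrays the values were alike in scale, with medians over all rows of 4.60 to 4.66 and Pearson's r of 0.990 to 0.995 over genes, which are not independent replicates. Of 14 ovarian surface and epithelial markers, Wt1 read 10.53 to 10.86, Upk3b 11.77 to 11.99, Krt18 9.22 to 9.57 and Pax8 3.46 to 3.62. None of the 14 passed without the trend (4 had an unadjusted p under 0.05 upward and 1 downward), and with it 4 were higher, among them Msln (0.86 ± 0.10), Krt8 (0.53 ± 0.13) and Krt18 (0.33 ± 0.09), and 2 lower, Wt1 (-0.28 ± 0.10) and Upk3b (-0.19 ± 0.10). Over all genes tested, 7.34% had such an unadjusted p upward and 6.97% downward, and 3.68% were higher and 3.60% lower with the trend. The summed linear level of the 14 was 7351 to 7433 on the control arrays and 6935 to 7016 on the decitabine arrays. That sum weighs most the genes with the highest levels, Upk3b and Wt1, which were the 2 lower. The median log2 fold change of the 14 was 0.18. Both decitabine arrays lay above both control arrays in 10 of them (23.4% of all genes) and below in 3 (22.5% of all genes). Of 9 fibroblast markers, Dcn read 11.74 to 11.82, Pdgfra 10.58 to 10.93, Col1a1 10.24 to 10.47, Col1a2 10.09 to 10.21 and Col3a1 8.97 to 9.33. Pdgfrb read 6.67 to 7.12, Thy1 5.22 to 6.96, Fap 3.39 to 4.10 and Lum 2.34 to 3.05. None of the 9 passed without the trend (1 had an unadjusted p under 0.05 upward and 1 downward), and with it Thy1 was higher (1.48 ± 0.17) and Pdgfra lower (-0.28 ± 0.10). The summed linear level of the 9 was 8579 to 8645 on the control arrays and 8312 to 8400 on the decitabine arrays. Their median log2 fold change was 0.02. Of 8 endothelial markers none passed in either fit (2 had an unadjusted p under 0.05, both higher). Leukocytes make these effectors readily, so their markers were read beside the members. None of 19 leukocyte markers passed without the trend (2 had an unadjusted p under 0.05, both higher) and 1, Cd68, was higher with it. The summed linear level of the leukocyte markers was 468 to 525 on the control arrays and 537 to 565 on the decitabine arrays, and their median log2 fold change was 0.04. The pan-leukocyte gene Ptprc was at 3.01 to 3.07 on the control arrays and 3.16 to 3.24 on the decitabine arrays. The part of these markers in the members' values was not tested.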

How the data were processed

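The deposited table holds 1 value per row and array, and the authors' values were taken as log2 expression, since no cell is empty and they span 0.55 to 13.3. The log base, background correction, summarisation and normalization are not given in the sources used here, and another base would change every fold. Per the labels' protocols, RNA was column-purified, biotin-labelled with a whole-transcript kit and hybridised to Mouse Gene 2.0 ST arrays. No detection level was set, because scanner files were not used here. The number of arrays limits the precision.

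The sample titles give each array's group and replicate number. Of 41345 rows, 23521 carried 1 gene symbol, and the row with the highest mean was kept per gene, leaving 22180 genes. Each member had 1 row, and 0 rows with several symbols named a member. The test was limma 3.58.1 under R 4.3.3 (two-sided, lmFit then eBayes, group as the only term, no trend), with Benjamini-Hochberg adjustment over all genes. Standard errors, p-values and 95% confidence intervals are limma's. Its eBayes step joins each gene's own variance (2 degrees of freedom) to a variance shared by all genes (3.07 degrees of freedom). The fit was tested on simulated data. Promoter windows come from RefSeq (GRCm38.p6), and the gene table of that assembly was used for names, synonyms, gene identifiers, gene types, chromosomes and order only. Windows were aligned locally with Biopython 1.88, and figures drawn with matplotlib 3.10.9 in Python 3.11.15.

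The members and lists were chosen with earlier results of these data known. The text names every member with all its values, the 2 genes of each pathway list with the smallest p, the 5 genes most like the member with the largest change, and the nearest genes beside each member locus. Marker genes are named from the marker lists, after their values were seen. Some listed genes were matched through RefSeq synonyms. The alternatives were 2 scalings, 2 filters on low values, robust eBayes, an intensity trend, a block for the replicate number, all rows fitted together, a mean over each gene's rows, and leaving out each array.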

Additional observations from a re-analysis of the deposited data

How the results depend on the processing

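The members' counts, median and fold changes and the calls among the other pathway genes were recomputed under 13 alternatives, of which 11 gave a value for Ifit3b, Mx1 and Mx2. In limma the count of members called higher, 1 as reported where 29 of all genes were (0.131%), became 3 with arrays centred on their medians (43 of all genes, 0.194%), 4 with a filter at the 25th percentile of level (151 of 16635, 0.908%), 5 with a filter at the median level (635 of 11090, 5.73%) and 6 with the intensity trend (817, 3.68%), so calls over all genes went up at these settings too. It became 0 with the replicate block, where 7 members were higher at an unadjusted p under 0.05, and 0 with all rows fitted, where 6 were. At these 2 settings 0 of all genes were called, and the share of all genes under the unadjusted p was not counted. Leaving out any 1 array left 1 array in a group, and no gene, member or not, was called. Either filter removed Ifit3b, Mx1 and Mx2 and so moved the members' median log2 fold change to 0.93, and leaving out 1 array gave 0.57 to 0.73. The 102 other pathway genes, of which 3 were called higher as reported, gave 1 with quantile normalization, 7 with centred arrays, 18 with the 25th percentile filter, 30 with the median filter, 39 with the trend, and 0 with robust eBayes, with the replicate block, with all rows fitted and (0 to 0) without any 1 array. Where no pathway gene was called with all 4 arrays, 40 to 41 had an unadjusted p under 0.05 in the higher direction. The share of all genes under that p was not counted there. Lower calls among the pathway genes became 1 with the median filter (616 of all 11090 genes) and 2 with the trend (798 of all 22180 genes). Of all genes, 26 were called higher with quantile normalization (0.117%) and 15 with robust eBayes (0.0676%). The filters left fewer genes to test and leaving out an array left fewer arrays, but the cause of these moves was not tested.

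The deviations of same-numbered arrays from their group means had a correlation of -0.02 over 22180 genes, so the numbers were not taken as pairs, and the replicate block changed the call of Ifit1 (adjusted p = 0.106) and no other member's. The direction of Ifit3 turned without control replicate 2 (0.068) and without decitabine replicate 2 (0.080), within a range of -0.17 to 0.080. The other 9 members kept their direction in every alternative that gave them a value.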

Other observations

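The response element core was also counted across the tested genes, as a description with no test. Of 657 tested genes with at least 1 match to GAAANNGAAA in a RefSeq window, 7.15% were called higher in limma with the intensity trend and 3.50% lower. Of 16261 tested genes without a match, 3.60% were higher and 3.53% lower. Among 54 genes with at least 2 matches, 12 were higher and 1 lower with the trend. Ifit1, Bst2 and Ifitm3 were among those 12, and Ifit3 and Ifit3b, with the same number of matches, were not. Without the trend 3 of the 54 were called higher and 0 lower. Both decitabine arrays lay above both control arrays for 26.6% of genes with a match and 23.5% of those without.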
